A study of Mus musculus with 8 samples.

Results

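The genes described here are the serpins of clades A to I and the alpha-2-macroglobulins A2m, Pzp and Mug1, as measured by RNA-seq in the mouse uterus with and without Nr2f2. They were chosen by symbol: every gene of the table whose name reads Serpin, a clade letter from a to i and a number, plus the 3 alpha-2-macroglobulins. Serping1, the C1 inhibitor, was left out. The rule found 66 of 24963 genes: 3 alpha-2-macroglobulins, 6 Serpina1 genes, 11 Serpina3 genes, 9 other genes of clade A, 27 of clade B and 10 of clades C to I.

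Most serpins inhibit serine or cysteine proteases by offering a loop that the protease cuts, after which the serpin folds over and locks the enzyme in an inactive complex. Alpha-2-macroglobulins work by enclosure instead: cleavage of a bait region closes the molecule around the protease, and the complex is taken up through the receptor LRP1. Clade A serpins are mostly secreted, clade B serpins stay mostly inside the cell and guard it against granzymes, cathepsins and neutrophil proteases, and clades C to I include inhibitors of coagulation and plasminogen activation. Serpinf1 and Serpinh1 are serpins by fold that do not inhibit proteases. In the uterus around implantation, extracellular proteases and their inhibitors take part in matrix and vessel remodelling.

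Whole uteri were taken at gestation day 3.5 from 4 Nr2f2 f/f females, which carry the floxed allele and no Cre and are labelled WT, and from 4 Nr2f2 d/d females (Pgr Cre/+; Nr2f2 f/f), the labelled strain being C57B6/J for both groups. Every female was 8 weeks old at mating per the labels and had a vasectomized mate per the study's methods, so no embryo was present and both groups carried the floxed Nr2f2 alleles, while only the Nr2f2 d/d females carried Cre in place of 1 Pgr allele. The Pgr promoter drives Cre in progesterone receptor-expressing cells, so Nr2f2 is kept in the other cells of the tissue, and an effect of the Pgr Cre allele itself cannot be told apart from that of Nr2f2. Each uterus gave 1 library, and the comparison asks which transcripts differ when uterine Nr2f2 is removed.

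The deposited values are FPKM, which count fragments per unit of gene length and per unit of library total. Library totals, recovered from the steps between low values, were 61350000 to 92500000 fragments, so that 3 fragments on a gene of 1 kb are worth 0.0324 to 0.0489 FPKM. Nr2f2 itself was at 25.3, 21.8, 25.7 and 23.5 FPKM in replicates 1 to 4 of the Nr2f2 f/f group, called controls below, and at 9.66, 9.42, 6.90 and 9.74 FPKM in Nr2f2 d/d replicates 1 to 4, a log2 fold change of -1.39 with an adjusted p of 0.00549 by limma. All 10 uterine markers, among them Pgr, Esr1, Hoxa10 and Hoxa11, passed the filter on low values, and they summed to 418 to 447 FPKM in the controls and 354 to 425 FPKM in Nr2f2 d/d. Of the 10, Hoxd10 and Hand2 were lower by the adjusted test, with the groups apart, against 1.53% of all tested genes, and none was higher. Correlations between libraries of a group were 0.933 to 0.989, the lowest being that of control replicates 2 and 4 among controls and, at 0.942, that of replicates 3 and 4 among Nr2f2 d/d. The summed level of 12 stromal markers was highest in Nr2f2 d/d replicate 3.

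At GD3.5 a small set of these genes had high levels in the uterus and most were listed near or at 0. Of the 66 genes, 14 were listed at 0 in all 8 libraries, 33 had some signal but a mean below 0.5 FPKM, and 19 reached that mean and were tested. Serpinh1, the collagen chaperone HSP47, had the highest level, with means of 272 ± 79.1 FPKM in the controls and 347 ± 108 in Nr2f2 d/d uteri (SD, n = 4 each, as for all means ± SD here). Below it in Nr2f2 f/f came Serpinf1 (85.5 ± 12.8 FPKM), Serpina1e (80.8 ± 34.7), Serpinb6a (59.0 ± 11.7) and Serpine2 (37.1 ± 20.4), whose neighbours in this order overlapped library by library. These 5 genes made up 85.3% to 91.9% of the summed FPKM of all 66 genes in every library. That sum was 525 to 646 FPKM in the Nr2f2 f/f libraries and 692 to 1230 FPKM in the Nr2f2 d/d libraries, with no overlap and with the highest value in Nr2f2 d/d replicate 3. A2m was 0.105% to 0.637% of it in controls and 1.97% to 10.5% in Nr2f2 d/d.

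**Figure D1:**
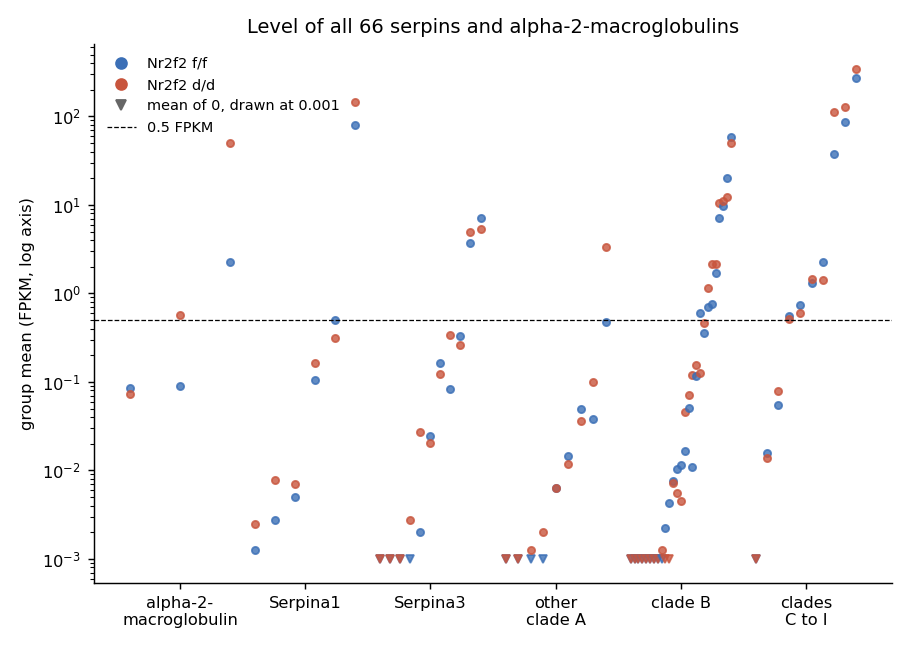
Group means of all 66 genes in FPKM on a log axis, by clade group and in order of level within each, blue for Nr2f2 f/f and red for Nr2f2 d/d, n = 4 libraries each. Most clade A and clade B genes lie below the dashed line at 0.5 FPKM, means of 0 are drawn as triangles at 0.001, and of the genes above the line A2m has the widest gap between the groups, 2.25 against 50.1 FPKM.

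Loss of Nr2f2 went with more transcript of 3 protease inhibitors, A2m, Serpina9 and Serpinb6b, and no gene of the set fell by the adjusted test. A2m, the broad protease trap, rose from a mean of 2.25 to 50.1 FPKM, Serpina9 from 0.480 to 3.35 FPKM and Serpinb6b from 7.12 to 10.6 FPKM. These are 3 of the 19 tested genes (15.8%) with an adjusted p under 0.05 by limma, all higher in Nr2f2 d/d, where 2.62% of all 14323 tested genes passed in either direction and 1.09% passed as higher. Serpina9 had a control mean below the filter of 0.5 FPKM and was tested only because of its higher Nr2f2 d/d values. It enters the counts of the 19 given here and below. None of the 19 passed as lower, against 1.53% of all tested genes. At an unadjusted p under 0.05, 6 of the 19 were higher and 2 lower, where 21.2% of all tested genes passed (8.66% higher, 12.5% lower), and limma was the only test applied across genes. At the study's own threshold, fold changes of 1.4 or more with an unadjusted p under 0.05, 6 genes were higher (A2m, Serpina9, Serpinb6b, Serpinb11, Serpine2 and Serpinf1) and 2 were lower (Serpini1 and Serpinb1a), 42.1% of the 19 against 8.8% of all tested genes (4.7% higher, 4.1% lower). Here and below, fold changes are differences of log2(FPKM + 0.5), Nr2f2 d/d minus Nr2f2 f/f, which understate the change of genes near or below 0.5 FPKM.

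The 4 libraries of each group did not overlap for 4 genes that were higher and 1 that was lower, 26.3% of the 19, against 15.4% of all tested genes (5.49% higher, 9.91% lower). Fold changes were above 0 for 13 of the 19 genes, their median being 0.36, and for 46.7% of all tested genes, whose median was -0.02. All 3 calls sat near the threshold, and their number depended on single libraries: it was 0 without Nr2f2 f/f replicate 1, 3 or 4 or Nr2f2 d/d replicate 1 or 2, 2 without Nr2f2 d/d replicate 3 (A2m and Serpinb6b) or 4 (A2m and Serpina9), and 1 without control replicate 2, where the gene called was Serpinb11 and none of the 3. At the study's threshold the number of genes that were higher stayed between 4 and 7 in the same 8 fits, and the number that were lower lay between 0, without Nr2f2 d/d replicate 1, and 3, without Nr2f2 d/d replicate 4. A2m, Serpina9 and Serpinb11 were past that threshold in all 8.

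**Figure D2:**
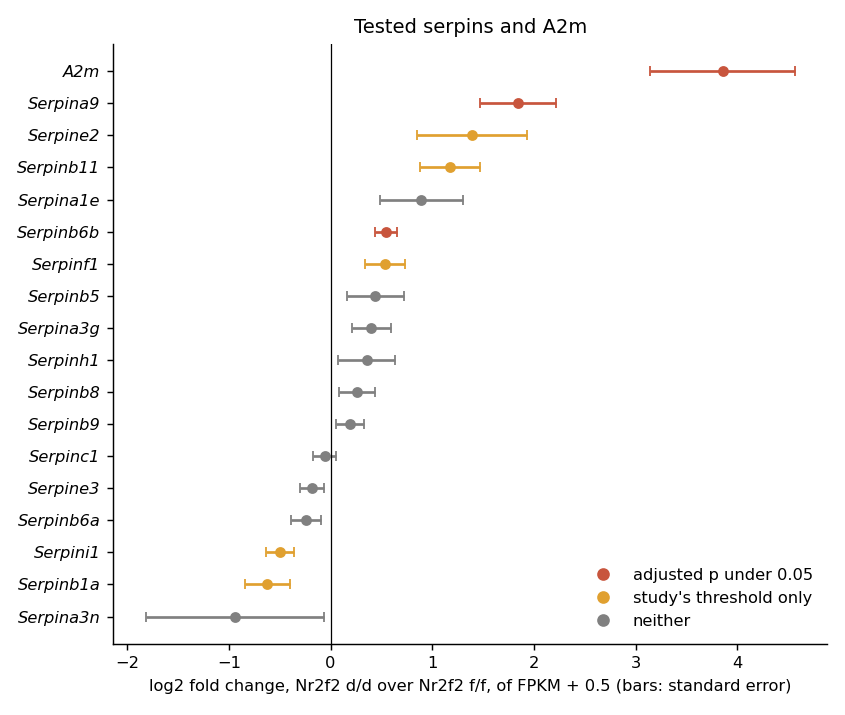
Log2 fold change of FPKM + 0.5, Nr2f2 d/d over Nr2f2 f/f, for 18 of the 19 tested genes, with bars of 1 standard error from limma. Red points have an adjusted p under 0.05, yellow points are past the study's threshold only, and 12 of the 18 points lie right of 0.

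The genes lie largely in clusters, by GENCODE vM21 coordinates on mm10. Chromosome 12 holds 25 of the clade A genes between 103614786 and 104414329, of which 4 were tested and 5 were at 0 in all libraries. Clade B genes form a group of 15 on chromosome 13 between 32842092 and 34002794, with 4 tested, and a group of 12 on chromosome 1 between 106861173 and 107610484, with 3 tested. A2m and Mug1 lie 159 kb apart on chromosome 6. Within each of the 3 serpin clusters, 1 gene was higher at the study's threshold, Serpina9, Serpinb6b and Serpinb11 respectively, and the chromosome 13 cluster also held Serpinb1a, which was lower. Of all tested genes, 4.7% were higher and 4.1% lower at that threshold.

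NR2F2 is a nuclear receptor that binds direct repeats of the 6-base motif AGGTCA and its variants, so the promoters of these genes were searched for AGGTCA and GGGTCA on both strands. RefSeq promoter sequences (GRCm38.p6, 250 bases before to 50 bases after a gene's start) were found by symbol for 55 of the 66 genes and for 15 of the 19 tested (not for A2m, Serpina9 or Serpinb1a). Of all 32851 promoters in the table, 27.5% held either motif (16.3% AGGTCA, 13.7% GGGTCA, some both), against 23 of the 64 promoters of these genes (35.9%). Among the 15 tested genes with a promoter, 2 had a match, a smaller share than the 27.5% of all promoters. They were Serpinf1 and Serpini1, both among the 5 genes past the study's threshold for which a promoter was found. These 2 promoters are shown, with the motif in capitals, beside that of Serpinb6b, which passed the adjusted test and has neither motif in this window. Serpinf1 has AGGTCA on the opposite strand (printed as TGACCT) beginning 209 bases before the start and on the gene's strand beginning 2 bases before it, and Serpini1 has GGGTCA beginning 105 bases before the start. A match describes a single copy of the motif, not a direct repeat, and the letters of this window only.
Serpinf1, chr11:75422574-75422873, minus strand: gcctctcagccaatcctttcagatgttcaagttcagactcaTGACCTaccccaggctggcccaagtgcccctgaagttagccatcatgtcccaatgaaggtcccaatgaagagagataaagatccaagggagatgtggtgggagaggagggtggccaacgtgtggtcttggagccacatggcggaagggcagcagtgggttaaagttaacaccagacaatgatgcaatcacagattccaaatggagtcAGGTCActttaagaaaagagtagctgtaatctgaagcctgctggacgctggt
Serpini1, chr3:75557243-75557542, plus strand: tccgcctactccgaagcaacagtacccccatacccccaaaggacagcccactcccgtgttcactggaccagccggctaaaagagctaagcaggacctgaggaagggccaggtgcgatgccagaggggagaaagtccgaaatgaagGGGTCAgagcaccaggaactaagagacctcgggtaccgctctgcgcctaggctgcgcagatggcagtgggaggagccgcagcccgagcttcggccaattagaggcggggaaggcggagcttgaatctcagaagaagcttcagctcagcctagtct
Serpinb6b, chr13:32965011-32965310, plus strand: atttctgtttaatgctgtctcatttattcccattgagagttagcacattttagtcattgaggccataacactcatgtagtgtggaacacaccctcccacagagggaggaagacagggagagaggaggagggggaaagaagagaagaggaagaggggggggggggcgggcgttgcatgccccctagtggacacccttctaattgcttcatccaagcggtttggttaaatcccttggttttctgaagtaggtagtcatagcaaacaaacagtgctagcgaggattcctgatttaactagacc

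A2m (chromosome 6, 121635376 to 121679227, plus strand) encodes alpha-2-macroglobulin, which traps proteases of every catalytic class. It stood at 1.62, 0.549, 3.92 and 2.89 FPKM in control replicates 1 to 4 and at 36.9, 20.9, 129 and 13.6 FPKM in Nr2f2 d/d replicates 1 to 4. Every Nr2f2 d/d library was above every Nr2f2 f/f library, and the spread within the Nr2f2 d/d group was as wide as its mean (2.25 ± 1.47 against 50.1 ± 53.5 FPKM, a ratio of means of 22.3). The log2 fold change was 3.86 (SE 0.71), with a limma adjusted p of 0.0356 and a two-sided exact permutation p of 0.0286, the smallest that the 70 arrangements of 4 against 4 libraries allow. The highest library, Nr2f2 d/d replicate 3, did not carry the difference alone: without it the log2 fold change was 3.22 with an adjusted p of 0.0402. The adjusted p was 0.0351 without Nr2f2 d/d replicate 4 and 0.0530 to 0.105 without each of the other 6 libraries.

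Mug1 encodes murinoglobulin, a relative of A2m that acts as a monomer. It was below the filter on low values, at 0.0440, 0.132, 0.118 and 0.0660 FPKM in the controls and 0.289, 0.731, 1.08 and 0.191 FPKM in Nr2f2 d/d replicates 1 to 4, with no overlap between the groups and, as for A2m, the highest value in Nr2f2 d/d replicate 3. Of its 76-base stretches, 12.5% also occur in transcripts of Mug2 and of pseudogenes of the family, so fragments may be shared with these. When the filter was dropped, Mug1 had a log2 fold change of 0.79 (SE 0.25) and did not pass, with a limma adjusted p of 0.163. Pzp, the pregnancy zone protein, was at 0.0850, 0.0620, 0.123 and 0.0690 FPKM in the controls and 0.121, 0.0450, 0.0690 and 0.0590 FPKM in Nr2f2 d/d, and its groups overlapped. A2m was thus the 1 alpha-2-macroglobulin above 0.5 FPKM in the mean of all libraries.

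**Figure D3:**
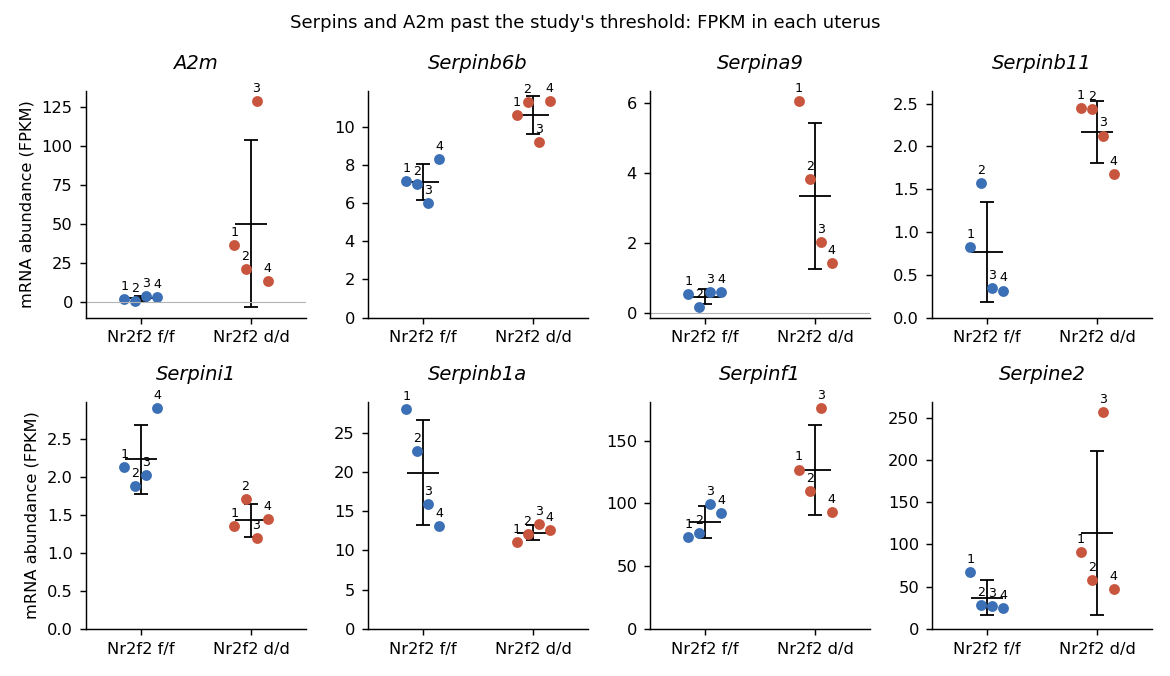
FPKM of the 8 genes past the study's threshold in each uterus, with Nr2f2 f/f libraries in blue and Nr2f2 d/d libraries in red, the replicate number above each point, and the mean ± SD (n = 4) as bars; each panel has its own axis. A2m, Serpinb6b, Serpina9, Serpinb11 and Serpini1 show no overlap between groups, while Serpine2 has 1 high control library (67.7 FPKM) and 1 Nr2f2 d/d library far above the others (257 FPKM).

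Among the secreted clade A serpins, Serpina9 rose and the abundant Serpina1e did not pass either threshold. Serpina9 (chromosome 12, 103994743 to 104013755, minus strand), known from germinal centre B cells, was at 0.542, 0.177, 0.600 and 0.601 FPKM in control replicates 1 to 4 and at 6.06, 3.84, 2.04 and 1.45 FPKM in Nr2f2 d/d replicates 1 to 4. All Nr2f2 d/d libraries were higher, with a ratio of means of 6.98 (0.480 ± 0.204 against 3.35 ± 2.07 FPKM). By limma the log2 fold change was 1.84 (SE 0.37), with an adjusted p of 0.0460 and an exact permutation p of 0.0286. Its size depended on the value added before the log2, 2.46 with 0.1 and 1.44 with 1, and with 1 the adjusted p was 0.0538. Leaving out Nr2f2 d/d replicate 4 gave an adjusted p of 0.0314, and leaving out each of the other 7 libraries gave 0.0610 to 0.139.

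Serpina1e is a mouse paralogue of alpha-1-antitrypsin, the plasma inhibitor of neutrophil elastase. It was at 38.1, 115, 102 and 68.1 FPKM in the controls and 152, 192, 73.8 and 169 FPKM in Nr2f2 d/d replicates 1 to 4. Of the Nr2f2 d/d libraries, 3 were above all controls, and replicate 3, highest for A2m, was here the lowest. This gave a log2 fold change of 0.89 (SE 0.41), with a limma adjusted p of 0.255 and an exact permutation p of 0.114. Transcripts of Serpina1a, Serpina1c and Serpina1d share 19.3% of its 76-base stretches, so the split of fragments among these genes is uncertain. The other 5 Serpina1 genes had means below 0.5 FPKM.

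In the Serpina3 cluster, related to alpha-1-antichymotrypsin, 2 of 11 genes were tested and neither had an unadjusted p under 0.05. Serpina3g, an intracellular inhibitor of lysosomal cathepsins in immune cells, was at 3.70 ± 1.05 FPKM in the controls and 4.997 ± 0.982 FPKM in Nr2f2 d/d, a log2 fold change of 0.40 (SE 0.19) with a limma adjusted p of 0.276. Serpina3n, an acute-phase inhibitor of cathepsin G and granzyme B, had the largest SE of the tested genes of the set, with values from 3.13 to 15.3 FPKM in the controls and from 0.551 to 14.7 FPKM in Nr2f2 d/d. Its log2 fold change of -0.94 had an SE of 0.88 and a limma adjusted p of 0.573. With 1 library left out it ranged from -1.67 to -0.38, and it passed the study's threshold only without Nr2f2 d/d replicate 4. Serpina3f, below the filter, was at 0.0900, 0.0710, 0.129 and 0.0430 FPKM in the controls and 0.382, 0.373, 0.410 and 0.202 FPKM in Nr2f2 d/d, so that the groups stood apart. When the filter was dropped, its log2 fold change was 0.52 with an adjusted p of 0.0393 by limma, while A2m, Serpinb6b and Serpina9 then had adjusted p-values of 0.0526, 0.0585 and 0.0675.

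Of the 7 tested clade B serpins, 1 rose by the adjusted test, against 1.09% of all tested genes. At the study's threshold 2 were higher and 1 was lower, against 4.7% and 4.1% of all tested genes. Serpinb6b (chromosome 13, 32965209 to 32979067, plus strand), a mouse relative of the intracellular inhibitor SERPINB6, was at 7.16, 7.01, 6.0 and 8.30 FPKM in control replicates 1 to 4 and 10.6, 11.3, 9.19 and 11.3 FPKM in Nr2f2 d/d replicates 1 to 4. The libraries of each group lay close together and did not overlap (7.12 ± 0.940 against 10.6 ± 1.01 FPKM). The log2 fold change was 0.55 (SE 0.11), with a limma adjusted p of 0.0454 and an exact permutation p of 0.0286. Without Nr2f2 d/d replicate 3 the adjusted p was 0.0434, and without each of the other 7 libraries it was 0.0588 to 0.139.

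Serpinb11, an epithelial serpin on chromosome 1 (107361198 to 107380475, plus strand), was at 0.83, 1.58, 0.347 and 0.316 FPKM in the controls and 2.45, 2.43, 2.13 and 1.67 FPKM in Nr2f2 d/d replicates 1 to 4. All Nr2f2 d/d libraries were above all controls, of which replicate 2 was the nearest. Its log2 fold change was 1.17 (SE 0.30) with a limma adjusted p of 0.0757 and an exact permutation p of 0.0286. Without Nr2f2 f/f replicate 2 it was 1.45 with an adjusted p of 0.0254, and without each of the other 7 libraries the adjusted p was 0.0945 to 0.192.

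Serpinb1a, an inhibitor of neutrophil elastase and cathepsin G, differed in the opposite direction, with 28.1, 22.7, 15.9 and 13.1 FPKM in the controls and 11.03, 12.1, 13.3 and 12.7 FPKM in Nr2f2 d/d replicates 1 to 4. The Nr2f2 d/d libraries were close together, 3 of them below every control, and the controls spread over a range that reached down to them. Its log2 fold change was -0.62 (SE 0.22), with an adjusted p of 0.163 by limma and an exact permutation p of 0.0571, and it missed the study's threshold without control replicate 1 (-0.44) or 2 or Nr2f2 d/d replicate 1. Serpinb6a, the orthologue of human SERPINB6 and the most abundant clade B gene, was at 59.0 ± 11.7 FPKM in the controls and 49.4 ± 5.92 FPKM in Nr2f2 d/d, a log2 fold change of -0.24 (limma adjusted p 0.374). Genes on the opposite strand, among them Nqo2 and Ripk1, overlap 29.3% of its exon length, and the strand setting of the counting is not given in the sources used here.

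The other 3 tested clade B genes had adjusted p-values of 0.394 to 0.443 by limma. Serpinb9, the granzyme B inhibitor of cytotoxic cells, was at 9.77 ± 1.95 FPKM in the controls and 11.1 ± 0.992 FPKM in Nr2f2 d/d, a log2 fold change of 0.20 (SE 0.14). Serpinb8, an inhibitor of furin, had a log2 fold change of 0.26 (SE 0.18), and Serpinb5, the epithelial non-inhibitory serpin maspin, one of 0.44 (SE 0.28). Of the other 20 clade B genes, 8 were at 0 in all libraries, among them Serpinb3a, Serpinb3b and Serpinb3d of the squamous cell carcinoma antigen family.

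Clades C to I hold the serpins of coagulation, plasminogen activation and matrix, and 7 of their 10 genes were tested, none past an adjusted p of 0.05 by limma and 3 with an unadjusted p under 0.05, which 21.2% of all tested genes had. Serpine2 (chromosome 1, 79794197 to 79861180, minus strand), the thrombin and urokinase inhibitor protease nexin-1, was at 67.7, 27.9, 27.7 and 25.2 FPKM in the controls and 91.4, 57.4, 257 and 47.8 FPKM in Nr2f2 d/d replicates 1 to 4. The groups overlapped because control replicate 1 was above 2 of the Nr2f2 d/d libraries, and Nr2f2 d/d replicate 3 was far above the rest. Between the group means, the log2 fold change was 1.39 (SE 0.54), with a limma adjusted p of 0.199 and an exact permutation p of 0.0857. It was 0.89 when Nr2f2 d/d replicate 3 was left out and 1.72 when control replicate 1 was, and it missed the study's threshold without control replicate 2, 3 or 4 or Nr2f2 d/d replicate 1 or 3.

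Serpinf1 (chromosome 11, 75409769 to 75422701, minus strand), the antiangiogenic pigment epithelium-derived factor, was at 73.0, 76.6, 99.7 and 92.7 FPKM in the controls and 127, 110, 176 and 93.2 FPKM in Nr2f2 d/d replicates 1 to 4. Of the Nr2f2 d/d libraries, 3 were above all controls and replicate 4 was within their range. The log2 fold change was 0.53 (SE 0.20), with an adjusted p of 0.178 by limma and an exact permutation p of 0.0571, and it missed the study's threshold without control replicate 1 or 2 or Nr2f2 d/d replicate 1 or 3, the lowest value being 0.36 without the last. Serpinf2, alpha-2-antiplasmin, lies beside it and was below 0.5 FPKM in every library.

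Serpini1 (chromosome 3, 75557547 to 75643495, plus strand), the tissue plasminogen activator inhibitor neuroserpin, was at 2.13, 1.88, 2.02 and 2.91 FPKM in the controls and 1.36, 1.71, 1.19 and 1.45 FPKM in Nr2f2 d/d replicates 1 to 4. It was the 1 tested gene of the set with every Nr2f2 d/d library below every control. The log2 fold change was -0.495 (SE 0.14), with a limma adjusted p of 0.101 and an exact permutation p of 0.0286, and it missed the study's threshold without control replicate 4 (-0.38) or Nr2f2 d/d replicate 1 or 3.

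Serpinh1, which helps collagen fold in the endoplasmic reticulum, was at 283, 164, 284 and 355 FPKM in the controls and 296, 356, 494 and 244 FPKM in Nr2f2 d/d replicates 1 to 4, with overlapping groups. Its log2 fold change was 0.36 (SE 0.28, limma adjusted p 0.495), and without both Nr2f2 f/f replicate 2 and Nr2f2 d/d replicate 3, which hold its lowest and highest values, it was -0.05. Serpinc1, antithrombin, was at 0.549 ± 0.0893 and 0.507 ± 0.0939 FPKM, but 34.4% of its exon length is overlapped by Zbtb37 on the opposite strand. Serpine3 was at 0.740 ± 0.0555 and 0.598 ± 0.126 FPKM, and Ints6 overlaps 24.8% of its exon length in the same way.

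The 47 genes left out of the test had means of at most 0.412 FPKM over the 8 libraries. Of these, 10 were above 3 fragments in all libraries, 11 had some signal but never more than 3 fragments, and 14 were listed at 0 throughout. A listed 0 need not mean no transcript: 4 globin genes, Hba-a1, Hba-a2, Hbb-bs and Hbb-bt, were also listed at 0 in all 8 whole-uterus libraries. Among the 14, Serpinb9g, Serpinb9e and Serpinb9c share 44.5%, 17.2% and 16.9% of their 76-base stretches with other transcripts, and the part of such sharing in the zeros was not tested. The groups stood apart for 3 of the 33 untested genes of the set with some signal, all higher in Nr2f2 d/d: Mug1, Serpina3f and Serpinb7. Serpinb7, a clade B gene of skin, was at 0.0170, 0, 0.0270 and 0 FPKM in the controls and 0.0940, 0.0590, 0.286 and 0.0350 FPKM in Nr2f2 d/d, with 5 of the 8 libraries above 3 fragments. Among all untested genes with some signal, 4.59% stood apart as higher and 2.79% as lower. Of the serpins known from plasma that were left out of the test, Serpina6 (corticosteroid-binding globulin) and Serpina5 (protein C inhibitor) were listed at 0 in all libraries and Serpind1 (heparin cofactor II) was at 0.0440 FPKM or less. In the hepatocyte list, which marks the main source of plasma serpins, 2 of 10 genes were at 0 in all libraries (Apoc3 and Cyp3a11) and 2 passed the filter. The list summed to 5.95 to 84.1 FPKM in the controls and 12.95 to 83.6 FPKM in Nr2f2 d/d, carried in each library by Hp, the haptoglobin gene (4.04 to 83.5 and 12.6 to 82.9 FPKM, log2 fold change 0.79, limma adjusted p 0.664). The other tested gene, Ttr, the transthyretin gene, was lower at the study's threshold, at 2.03 ± 1.15 and 0.664 ± 0.418 FPKM (-1.03, limma adjusted p 0.214). The part of this list in the values of the plasma serpins was not tested.

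Across libraries, the genes did not move as a block. Nr2f2 d/d replicate 3 was the highest of its group for 7 of the 19 tested genes, among them A2m, Serpine2, Serpinf1 and Serpinh1, as it was for 33.1% of all tested genes. Replicate 4 was the lowest of the group for 9 of the 19, against 34.1% of all genes, and in the controls replicate 2 was the lowest for 9, against 40.3%. Serpina1e and Serpinb6b had their lowest Nr2f2 d/d value in replicate 3, opposite to A2m and Serpine2.

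**Figure D4:**
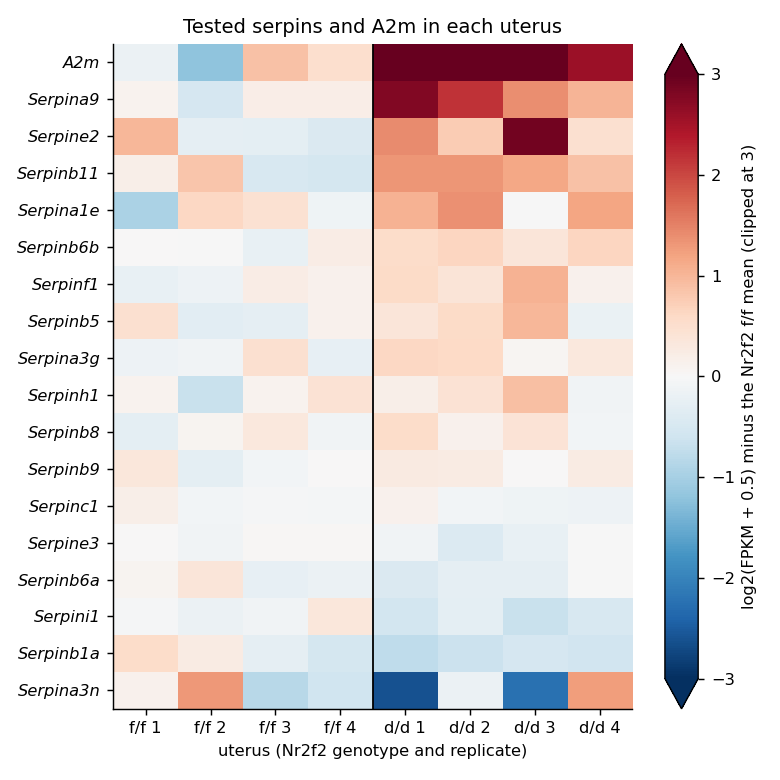
Log2(FPKM + 0.5) of 18 of the 19 tested genes in each uterus relative to the Nr2f2 f/f mean, red for higher and blue for lower, with colours clipped at 3. The A2m line is red in all 4 Nr2f2 d/d libraries, Serpine2 is darkest in Nr2f2 d/d replicate 3, and Serpina3n changes colour within both groups.

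Markers of several cell types differed between the groups as well, and in whole tissue fewer cells of a type cannot be told apart from less RNA per cell. The counts that follow are read against all tested genes, of which 1.09% were higher and 1.53% lower by the adjusted test, and 8.66% and 12.5% at an unadjusted p under 0.05. The 12 stromal markers summed to 1966 to 2329 FPKM in the controls and 2727 to 5109 FPKM in Nr2f2 d/d, highest in replicate 3, where A2m, Serpine2, Serpinf1 and Serpinh1 were highest too, with 2 of 12 past an adjusted p of 0.05 as higher (Col1a2 and Dcn) and 1 as lower (Hand2). Fitted log2 fold changes of the stromal markers were above 0 for 5 of the 12 and below 0 for 7, with a median of -0.12, and at the study's threshold 5 were higher (Col1a1, Col1a2, Col3a1, Dcn and Lum) and 3 lower (Vim, Hand2 and Thy1). The 12 epithelial markers summed to 873 to 952 FPKM and 1186 to 1301 FPKM, with 2 of 12 higher by the adjusted test and 7 at an unadjusted p under 0.05. Endothelial markers were lower, at 319 to 424 FPKM and 206 to 260 FPKM, with 6 of 10 past the adjusted test and 9 at an unadjusted p under 0.05. T and NK cell markers summed to 51.3 to 74.1 FPKM and 59.9 to 284 FPKM, highest in Nr2f2 d/d replicate 4, with 1 of 10 tested higher by the adjusted test and 6 at an unadjusted p under 0.05. Mesothelial markers summed to 72.75 to 100.7 FPKM and 92.85 to 117.8 FPKM, with 1 of 6 tested higher by the adjusted test (Msln) and 5 at an unadjusted p under 0.05. Macrophage markers summed to 269 to 525 FPKM and 414 to 712 FPKM, with 0 of 11 past the adjusted p by limma and 1 higher at an unadjusted p under 0.05, a share near that of all tested genes, although 10 of the 11 had log2 fold changes above 0, with a median of 0.31, against 46.7% and -0.02 over all tested genes. Neutrophil markers, whose proteases are targets of Serpinb1a and the Serpina1 genes, summed to 3.80 to 21.6 FPKM and 18.9 to 42.4 FPKM, with 0 of 4 tested past the adjusted p by limma and 3 at an unadjusted p under 0.05, 2 higher and 1 lower. Skeletal muscle markers summed to 16.0 to 40.4 FPKM and 32.2 to 68.5 FPKM, with 1 of 4 tested higher by the adjusted test (Tnni2), 2 at the study's threshold (Tnni2 and Tnnt3) and 4 with fold changes above 0. In the lists for smooth muscle, mast cells, adipocytes, ovary, oviduct and erythroid cells, with 10, 6, 3, 4, 3 and 1 genes tested (the 4 globins at 0 belong to the erythroid list), 0 passed the adjusted p by limma, and 2 ovary markers were higher and 1 mast cell marker lower at an unadjusted p under 0.05. Of the 8 lists with sums given here, Myh4 of skeletal muscle was the only marker at 0 in all libraries, and their part in the differences of the serpins and A2m was not tested.

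The proteases that these inhibitors act on, and other inhibitors, were read from 4 lists of genes. In the plasminogen and coagulation list, 18 of 34 genes were tested and 4 passed the adjusted test, all lower in the Nr2f2 d/d uteri, and the median over the 18 was a log2 fold change of -0.26. The 4 were Procr, the endothelial protein C receptor (49.1 ± 4.25 to 20.5 ± 6.42 FPKM, log2 fold change -1.28, limma adjusted p 0.0189), Hgf, a growth factor related to plasminogen (5.80 ± 1.09 to 2.66 ± 0.298 FPKM, -0.99, 0.0151), Tfpi, the tissue factor pathway inhibitor (18.4 ± 0.690 to 14.2 ± 0.80 FPKM, -0.37, 0.0309), and Pros1, protein S (26.4 ± 1.30 to 21.2 ± 0.610 FPKM, -0.31, 0.0412). None of the 4 showed overlap between groups. Of the 18, 9 were lower and 2 higher at an unadjusted p under 0.05, against 12.5% and 8.66% of all tested genes. The endothelial markers moved in the same direction, and their part in these values was not tested. The count of 4 was 0 without Nr2f2 f/f replicate 1 or Nr2f2 d/d replicate 1 or 2, 1 without Nr2f2 f/f replicate 4 (Hgf), 2 without Nr2f2 f/f replicate 3 (Hgf and Procr) and 3 without each of the other 3. Those 3 were Hgf, Procr and Tfpi without control replicate 2 or Nr2f2 d/d replicate 3, and Hgf, Procr and F13a1, a gene outside the 4, without Nr2f2 d/d replicate 4.

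Among other proteases, 48 of 68 genes were tested and 1 passed the adjusted test, a share near the 2.62% of all tested genes, with a median log2 fold change of 0.10. Gzmb, granzyme B, the target of Serpinb9 and Serpina3n, was at 21.1, 24.4, 41.1 and 27.7 FPKM in the controls and 97.4, 101, 51.4 and 131 FPKM in Nr2f2 d/d replicates 1 to 4. All Nr2f2 d/d libraries were higher, with a log2 fold change of 1.69 (SE 0.30) and a limma adjusted p of 0.0328. Gzma, granzyme A, had a log2 fold change of 2.40 with a limma adjusted p of 0.0517, and Casp1, caspase 1, one of 0.44 with 0.0560, again without overlap. Serpinb9, the intracellular inhibitor that matches granzyme B, had the log2 fold change of 0.20 given above, whose adjusted p did not pass. Gzma belongs to the T and NK cell list, whose sum was highest in the same library as Gzmb and Gzma (replicate 4 of Nr2f2 d/d), and the part of those cells was not tested. With single libraries omitted, Gzmb was called in 2 fits of 8, those without control replicate 3 or Nr2f2 d/d replicate 3. Other genes were called in 4 of the 8: Gzma without Nr2f2 d/d replicate 3 or 4, Prss23 without control replicate 1, and Htra2 and Htra3 without control replicate 2.

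Of the other protease inhibitors, 20 of 47 genes were tested, 1 rose and 1 fell, against 1.09% and 1.53% of all tested genes. Spink1, a trypsin inhibitor made by uterine glands, was at 288, 1332, 165 and 115 FPKM in the controls and 0.729, 5.15, 2.56 and 24.4 FPKM in Nr2f2 d/d replicates 1 to 4, the lowest control being above the highest Nr2f2 d/d library. Its log2 fold change was -5.93 (SE 1.03, limma adjusted p 0.0292), and it was -5.20 without control replicate 2, -5.28 without Nr2f2 d/d replicate 1 and -6.73 without Nr2f2 d/d replicate 4. Wfdc18, a protein with the whey acidic protein fold, rose from 0.453 ± 0.457 to 4.80 ± 2.95 FPKM (log2 fold change 2.37, adjusted p 0.0481 by limma), and Slpi, the secretory leukocyte protease inhibitor, was at 3.46 ± 1.04 and 7.89 ± 2.65 FPKM (1.07, adjusted p 0.0742). The control mean of Wfdc18 was below 0.5 FPKM, so Wfdc18 passed the filter only through its Nr2f2 d/d values. The 10 gland markers, of which Spink1 is 1, summed to 297 to 3315 FPKM in the controls and 306 to 1140 FPKM in Nr2f2 d/d, and the part of the glands in these values was not tested. Spink1 was called without control replicate 2 or Nr2f2 d/d replicate 4, the only gene called without control replicate 3 was Wfdc17, and none was called without any of the other 5 libraries.

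The relatives of alpha-2-macroglobulin and the receptors that clear it had 10 of 15 genes tested. By the adjusted test 1 was higher and 1 lower, against 1.09% and 1.53% of all tested genes. At an unadjusted p under 0.05 by limma, 2 of the 10 were higher and 1 lower, against 8.66% and 12.5%. C4b, complement component 4, which shares the thioester fold of A2m, rose from 11.2 ± 1.57 to 21.5 ± 3.78 FPKM (log2 fold change 0.90, limma adjusted p 0.0249), although C4a is a near-identical copy with which fragments may be shared. Cd109, a membrane-bound relative of A2m, fell from 5.33 ± 0.879 to 2.71 ± 0.682 FPKM (-0.87, limma adjusted p 0.0418), opposite to A2m. Lrp1, the receptor for complexes of A2m and of many serpins, had a fitted log2 fold change of -0.01 (limma adjusted p 0.983). Both were called without Nr2f2 f/f replicate 3 or Nr2f2 d/d replicate 3, C4b alone without control replicate 2 or Nr2f2 d/d replicate 4, and neither without each of the other 4.

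**Figure D5:**
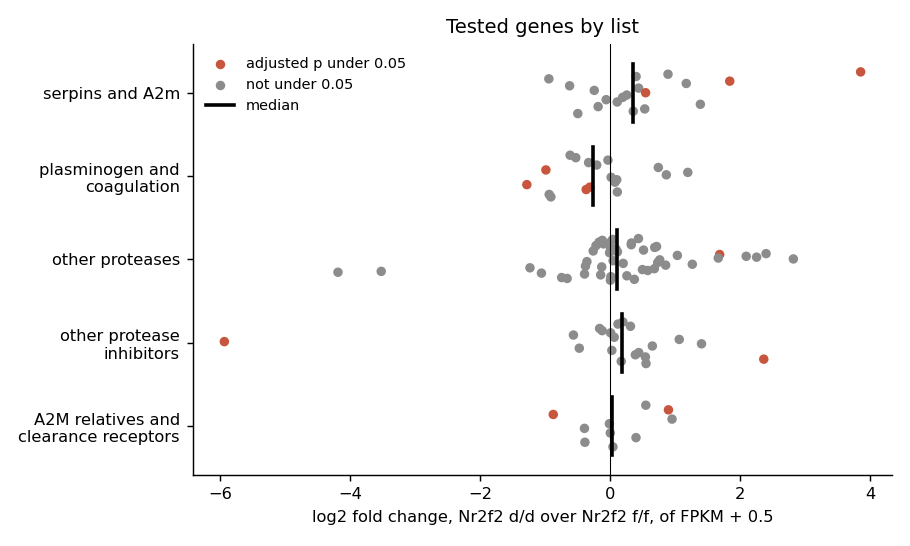
Log2 fold changes of FPKM + 0.5, Nr2f2 d/d over Nr2f2 f/f, for the tested genes of the serpin and A2m set and of the 4 lists, 1 point a gene, with medians as black bars and genes with an adjusted p under 0.05 in red. The median is 0.36 for serpins and A2m and -0.26 for plasminogen and coagulation, and Spink1 is the red point at -5.93.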

How the data were processed

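RNA-seq of whole uterus at GD3.5 was measured in 8 libraries, 4 Nr2f2 f/f and 4 Nr2f2 d/d, grouped and numbered by the sample titles. The authors trimmed adaptors with cutadapt 1.12, aligned 76-base paired reads to mm10 with STAR 2.5.2b and counted fragments per gene with featureCounts 1.5.0-p1, per the paper's methods. They deposited FPKM with 3 decimals. Cufflinks 2.0.2 is listed among the submitters' tools with no stated role. The annotation, strand setting and FPKM formula are not given in the sources used here.

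The FPKM were taken to log2 after adding 0.5. The 14323 genes whose mean reached 0.5 FPKM were tested without covariates by limma 3.58.1 in R 4.3.3 (two-sided, eBayes with trend), in place of the study's DESeq2 test of counts, which were not used here, with Benjamini-Hochberg adjustment over all 14323. The study's methods set the other threshold, a 1.4-fold change with an unadjusted p under 0.05. Single genes were also compared by exact permutation of the 8 libraries. Library totals were recovered from FPKM of microRNA genes, of which 97.4% to 99.0% became whole fragments (within 0.1) at 1 total per library, against medians of 11.8% to 13.1% at other totals. Floors of 3 fragments cover counting error only. All 66 symbols matched GENCODE vM21, from which coordinates and exon overlaps come. The model was tested on simulated data with known fold changes.

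The genes, the 4 pathway lists and the marker lists were chosen with earlier results of these data known. Named are A2m, Pzp and Mug1, every gene past either threshold, the 4 most abundant, the smallest p of each clade group, untested genes whose groups stand apart, and in each pathway list the 3 smallest p and every gene past an adjusted p of 0.05. Other genes are named for their role, after their values were seen. Some genes that enter the counts are not reported by name here. Alternatives were 0.1 or 1 added before the log2, no filter or a filter at 1 FPKM, median-ratio and quantile scaling, eBayes without trend or with robust estimation, a replicate block and each library left out. Leaving out both libraries of lowest correlation was added after seeing the data.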

Additional observations from a re-analysis of the deposited data

Results flagged for a closer look

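For 58 groups of 4 libraries, the lowest or highest library was compared with the other 3 on the log2(FPKM + 0.5) scale by Dixon's gap test at its 95% critical value, which chance passes in about 1 in 20 groups, and 5 passed. Nr2f2 was at 6.898 FPKM in Nr2f2 d/d replicate 3, below the 9.422 to 9.739 FPKM of the other 3 Nr2f2 d/d libraries. Procr was at 30.079 FPKM in Nr2f2 d/d replicate 4, above 16.62 to 17.976 FPKM in the others. Serpina3f was at 0.202 FPKM in Nr2f2 d/d replicate 4, below 0.373 to 0.41 FPKM. In the controls, Serpina9 was at 0.177 FPKM in Nr2f2 f/f replicate 2, below 0.542 to 0.601 FPKM, and Serpine2 was at 67.712 FPKM in Nr2f2 f/f replicate 1, above 25.172 to 27.9 FPKM. The cause of these values was not tested.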

How the results depend on the processing

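Of 209 alternative log2 fold changes of the 11 tested and named serpins and A2m, 173 kept their direction and side of the adjusted threshold, 32 lost and 2 gained a call (A2m, Serpinb6b and Serpina9 lost, Serpinb11 gained), and 2 changed direction. A2m kept its call in 10 alternatives and lost it in 9, Serpina9 kept 7 and lost 12, and Serpinb6b kept 8 and lost 11. The other genes had no call to lose. Filter, eBayes and title-block settings leave the fold change itself unchanged, so its direction was fixed there. Both changes of direction were for Serpinh1, which was -0.0509 with a block on column numbers and -0.0509 without both libraries of lowest correlation, Nr2f2 f/f replicate 2 and Nr2f2 d/d replicate 3. The column-number block also lacks these libraries, so both values are the same estimate. The 3 genes with an adjusted p under 0.05 became 1, Serpina3f, without the filter, where more genes were tested. They numbered 0 to 2, and 0 to 0 for lower genes, with 1 library left out. At the study's threshold 4 to 7 genes were higher and 0 to 3 lower with 1 library left out, and 1 was lower with 1 added before the log2, with median-ratio scaling, with the column-number block and without both libraries of lowest correlation. With 1 library left out, calls were 0 to 3 for plasminogen and coagulation, 0 to 2 for other proteases, 0 to 1 for other inhibitors and 0 to 2 for relatives and receptors of alpha-2-macroglobulin. Other proteases had 5 calls without both libraries of lowest correlation, where other inhibitors had 0. Other inhibitors had 1 call with 1 added before the log2, without the filter, with the filter at 1 FPKM and with robust eBayes, and relatives and receptors had 1 without the filter. The cause was not tested.

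With the replicate number as a block, 0 of these genes and 0 genes of each of the 4 lists passed the adjusted threshold, both by title number and by column number (6 libraries, numbers 1, 3 and 5). Correlations of same-numbered deviations were -0.20, -0.17, 0.05 and -0.04 by title and -0.20, 0.15 and -0.04 by column name. They had no reference to be read against, so they do not settle whether the numbers pair the libraries. The difference of 4 against 4 libraries cannot reach an exact p below 0.0286.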
